A study of Rattus norvegicus with 105 samples.

Results

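Metallothioneins Mt1 and Mt2A and the zinc exporter Slc30a1 (ZnT1) were followed through all 35 treatment groups of a rat hepatocyte study. The genes were taken by symbol, without regard to their values: every probe named Mt1, Mt1a, Mt1m or Mt2A, plus Slc30a1. That gave 3 genes and 4 probes, of 20946 gene symbols and 22253 probes on the panel. Mt1 had 2 probes, numbered 39805 and 9255, and Mt2A and Slc30a1 had 1 each. No probe carried the symbol Mt1a or Mt1m.

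Metallothioneins are small, cysteine-rich proteins of the cytosol that bind zinc and copper, and also cadmium. Slc30a1 is the zinc transporter of the plasma membrane and moves zinc out of the cell. When free zinc in the cytosol rises, the zinc-finger factor Mtf1 binds metal response elements in the promoters of these genes, and the transcripts for zinc binding and for zinc export then increase together. In liver, metallothionein genes are also known to respond to glucocorticoids, to cytokines of the acute phase and to oxidative stress.

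The cells were primary hepatocytes from 1 commercial lot of female Sprague-Dawley rats, plated on collagen in 96-well plates, in Williams' E medium with serum, antibiotics and insulin-transferrin-selenium. Exposure lasted 24 h. The tested compounds were the short nitroalkanes nitromethane (NM, a methyl chain), nitroethane (NE, ethyl) and 1-nitropropane (1NP, propyl). Each was given at 8 concentrations: 0.003 and 0.01 mM, 0.03 and 0.1 mM, 0.3 and 1 mM, and 3 and 10 mM. The other treated wells received CITCO, an activator of human CAR with reduced potency on the rat receptor, at 20 or 10 µM, rifampin at 40 or 20 µM, benzo[a]pyrene, an AhR activator, at 50 µM, or the PPAR-alpha activator WY-14643. Controls were DMSO, the vehicle, and plain medium. Ligated detector oligonucleotides were counted by sequencing (TempO-Seq). Each group had 3 libraries. Set 1 held NM, NE, CITCO, rifampin, benzo[a]pyrene, WY-14643, DMSO and medium in 72 libraries. Set 2 held 1NP, WY-14643, DMSO and medium in 33 libraries, with its controls numbered 4, 5 and 6. The labels call the replicates biological, but the cells came from 1 lot, so p-values measure the spread between wells. Within a nitroalkane, every concentration had a separate plate row, so row and concentration cannot be told apart there. Rows were shared between compounds: medium lay with the 0.003 mM wells of its set and DMSO with the 0.01 mM wells. Within a set, nitroalkanes had separate plate columns, apart from those of the controls. Column and compound therefore cannot be told apart between NE and NM at the same concentration, which shared a row. The part of well position was not tested. The titles give the nitroalkane concentrations in µM and the protocol in mM, and mM is used here. They give DMSO as 0.5, where the protocol gives 0.2%. The WY-14643 wells of set 2 are titled 50 µM, but their library names read 100 µM. Whether DMSO was also present in the nitroalkane wells is not stated, and for that reason every treated group was set against both controls of its own set.

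The promoters are shown because the metal response element is the feature through which Mtf1 acts on all 3 genes. Each sequence is the 250 bases before the annotated gene start on the gene's own strand, from RefSeq (assembly GRCr8), and all 3 genes matched by symbol. Capitals mark the element's core, TGCACNC or TGCGCNC, found on either strand. The promoter window of Mt1 is chr19:10832976-10833225 on the minus strand, that of Mt2A chr19:10838709-10838958 on the minus strand and that of Slc30a1 chr13:106021769-106022018 on the plus strand.
Mt1: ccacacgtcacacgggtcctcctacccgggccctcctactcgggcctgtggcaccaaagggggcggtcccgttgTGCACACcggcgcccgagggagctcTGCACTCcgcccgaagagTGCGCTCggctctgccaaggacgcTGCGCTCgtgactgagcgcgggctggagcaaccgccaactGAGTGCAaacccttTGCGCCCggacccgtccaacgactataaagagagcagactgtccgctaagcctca
Mt2A: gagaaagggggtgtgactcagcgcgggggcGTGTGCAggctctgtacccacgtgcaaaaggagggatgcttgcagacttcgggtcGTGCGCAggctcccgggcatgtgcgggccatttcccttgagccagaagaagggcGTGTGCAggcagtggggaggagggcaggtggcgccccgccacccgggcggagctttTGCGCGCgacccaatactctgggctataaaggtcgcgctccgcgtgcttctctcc
Slc30a1: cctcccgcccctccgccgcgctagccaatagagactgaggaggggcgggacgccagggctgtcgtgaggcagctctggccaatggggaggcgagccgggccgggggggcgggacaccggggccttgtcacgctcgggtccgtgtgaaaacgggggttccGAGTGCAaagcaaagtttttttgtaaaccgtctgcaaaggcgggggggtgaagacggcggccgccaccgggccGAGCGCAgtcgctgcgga
The Mt1 promoter held 6 cores, at positions -176, -151, -133, -109, -69 and -55 from the gene start. Mt2A held 4, at -220, -165, -111 and -55, and Slc30a1 held 2, at -91 and -18. No base belonged to more than 1 of these cores. At least 1 core occurred in 6883 of 33469 RefSeq promoters of this length (20.6%). As many as 6 occurred in 9 promoters (0.0269%), as many as 4 in 89 (0.266%) and as many as 2 in 1639 (4.9%). The antioxidant response element core TGACNNNGC occurred 1 time in each of the 3 promoters and in 10.1% of all. The genes Mt1 and Mt2A are neighbours on chromosome 19, with 4958 bases between them. RefSeq also lists 4 other entries with Mt1 symbols in the rat, Mt1m and symbols of numbered pseudogenes, whose gene type was not checked. The assignment of Mt1 probe reads to a single gene is therefore uncertain where a copy is near-identical.

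Levels are given as CPM, the count scaled to a common library total. A probe's CPM also reflects how well that probe ligates, so the 4 levels are not compared with each other. Library totals ran from 5475419 to 11122665 counts (median 8680678), and 3 counts corresponded to 0.270 to 0.548 CPM. The lowest count of a member in any library was 27, for Mt1 probe 9255, so no member was near the detection limit. The related genes Mt3 and Mt4 were not expressed at a usable level: Mt3 reached at most 0.717 CPM and Mt4 had 1 count in all libraries together. 4 libraries correlated with their own replicates at a median below 0.95: NM 10 mM replicate 3 (0.915), NM 3 mM replicate 1 (0.915), NM 1 mM replicate 1 (0.946) and 1NP 10 mM replicate 3 (0.925). Where a member's log2 change from a control is printed for NM or 1NP at 10 mM, it is also given without them. The same holds for the members in NE against NM at 3 and 10 mM. NE 10 mM replicate 2 had counts for 21627 probes, against a median of 13792 over all libraries. The cells are labelled hepatocytes, and 9 of 9 hepatocyte probes averaged at least 1 CPM, from 13.9 CPM for Cps1 to 2865 CPM for Ttr. Of the marker probes of other liver cells, 4 of 6 for cholangiocytes, 2 of 9 for Kupffer cells, 1 of 8 for stellate cells, 0 of 7 for endothelium and 0 of 4 for lymphocytes averaged 1 CPM. Among the cholangiocyte probes, Sox9 averaged 435.9, Epcam 184.1, Krt19 30.8 and Spp1 7.73 CPM, and both Krt7 probes lay under 1 CPM. Passing 1 CPM does not settle cell identity, which was not tested.

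All 4 probes were higher in DMSO than in plain medium, in both sets. Mt2A was at 69.1, 61.1 and 58.5 CPM in DMSO of set 1, against 26.3, 25.6 and 15.6 CPM in medium of set 1. In set 2 it was at 91.8, 88.2 and 80.0 CPM in DMSO, against 24.3, 24.9 and 25.0 CPM in medium. In the plate row of DMSO, Mt2A averaged 18.3 CPM in NM, 20.6 CPM in NE and 25.1 CPM in 1NP, each at 0.01 mM. Every DMSO library exceeded every medium library of its set for each of the 4 probes. The share of all probes without overlap is not given, here or where overlap is stated for other groups, so overlap serves only as description. Mt1 probe 39805 averaged 858.6 ± 62.8 CPM in DMSO and 361.5 ± 114 CPM in medium of set 1 (SD, n = 3 each). Slc30a1 averaged 81.5 ± 2.60 CPM in DMSO and 53.3 ± 5.50 CPM in medium of set 1 (SD, n = 3 each), a smaller step than those of the metallothioneins. The difference was tested with edgeR's quasi-likelihood test, with Benjamini-Hochberg adjustment over all probes and a call at an adjusted p under 0.05. In set 1, where 7.06% of all probes were called (3.88% higher), the log2 changes were 1.29 (SE 0.19) for Mt1 probe 39805, 1.23 (SE 0.26) for probe 9255, 1.53 (SE 0.18) for Mt2A and 0.66 (SE 0.11) for Slc30a1, with edgeR adjusted p of 0.00024, 0.00603, 3.17e-06 and 0.000125. In set 2, where 24% were called (12.4% higher), they were 1.56 (SE 0.14), 1.39 (SE 0.23), 1.91 (SE 0.17) and 0.50 (SE 0.13), with edgeR adjusted p of 3.59e-07, 0.000764, 3.41e-07 and 0.00819. The step did not differ between the sets by a test of the difference for any of the 4 probes, where 0.302% of all probes differed (edgeR; for Mt2A 0.38, SE 0.25, adjusted p = 0.435), which does not show that the steps were equal. The hepatocyte markers moved with it: their summed level was 14820 to 16153 CPM in DMSO and 8816 to 11018 CPM in medium of set 1, and its part in the result was not tested.

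Metallothioneins rose with nitroethane at the upper end of its range. From 0.003 to 0.3 mM the 15 NE libraries held Mt2A at 9.85 to 32.6 CPM, with a median of 22.1 CPM, which spans the level in medium. At 1 mM it was at 28.5, 36.0 and 22.1 CPM, at 3 mM at 99.7, 92.2 and 42.8 CPM and at 10 mM at 158.0, 165.8 and 159.8 CPM. The 3 mM libraries all exceeded medium but overlapped DMSO, and the 10 mM libraries all exceeded both controls. Mt1 probe 39805 was at 436.2, 523.5 and 321.9 CPM at 1 mM, at 1159, 1216 and 1010 CPM at 3 mM and at 1167, 1176 and 1645 CPM at 10 mM. Unlike Mt2A, its 3 mM libraries exceeded every DMSO library as well as every medium library. Mt1 probe 9255 averaged 44.1 ± 15.6 CPM at 1 mM, 138.1 ± 13.6 CPM at 3 mM and 158.3 ± 44.7 CPM at 10 mM (SD, n = 3 each). Slc30a1 was at 75.6, 89.5 and 76.9 CPM at 3 mM and at 86.9, 73.0 and 85.3 CPM at 10 mM, above all medium libraries and overlapping DMSO. It was also at 110.7 CPM in replicate 3 of 0.01 mM, the highest level of this gene in any library, while the other 2 libraries of that group were at 62.2 and 68.6 CPM.

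**Figure D1:**
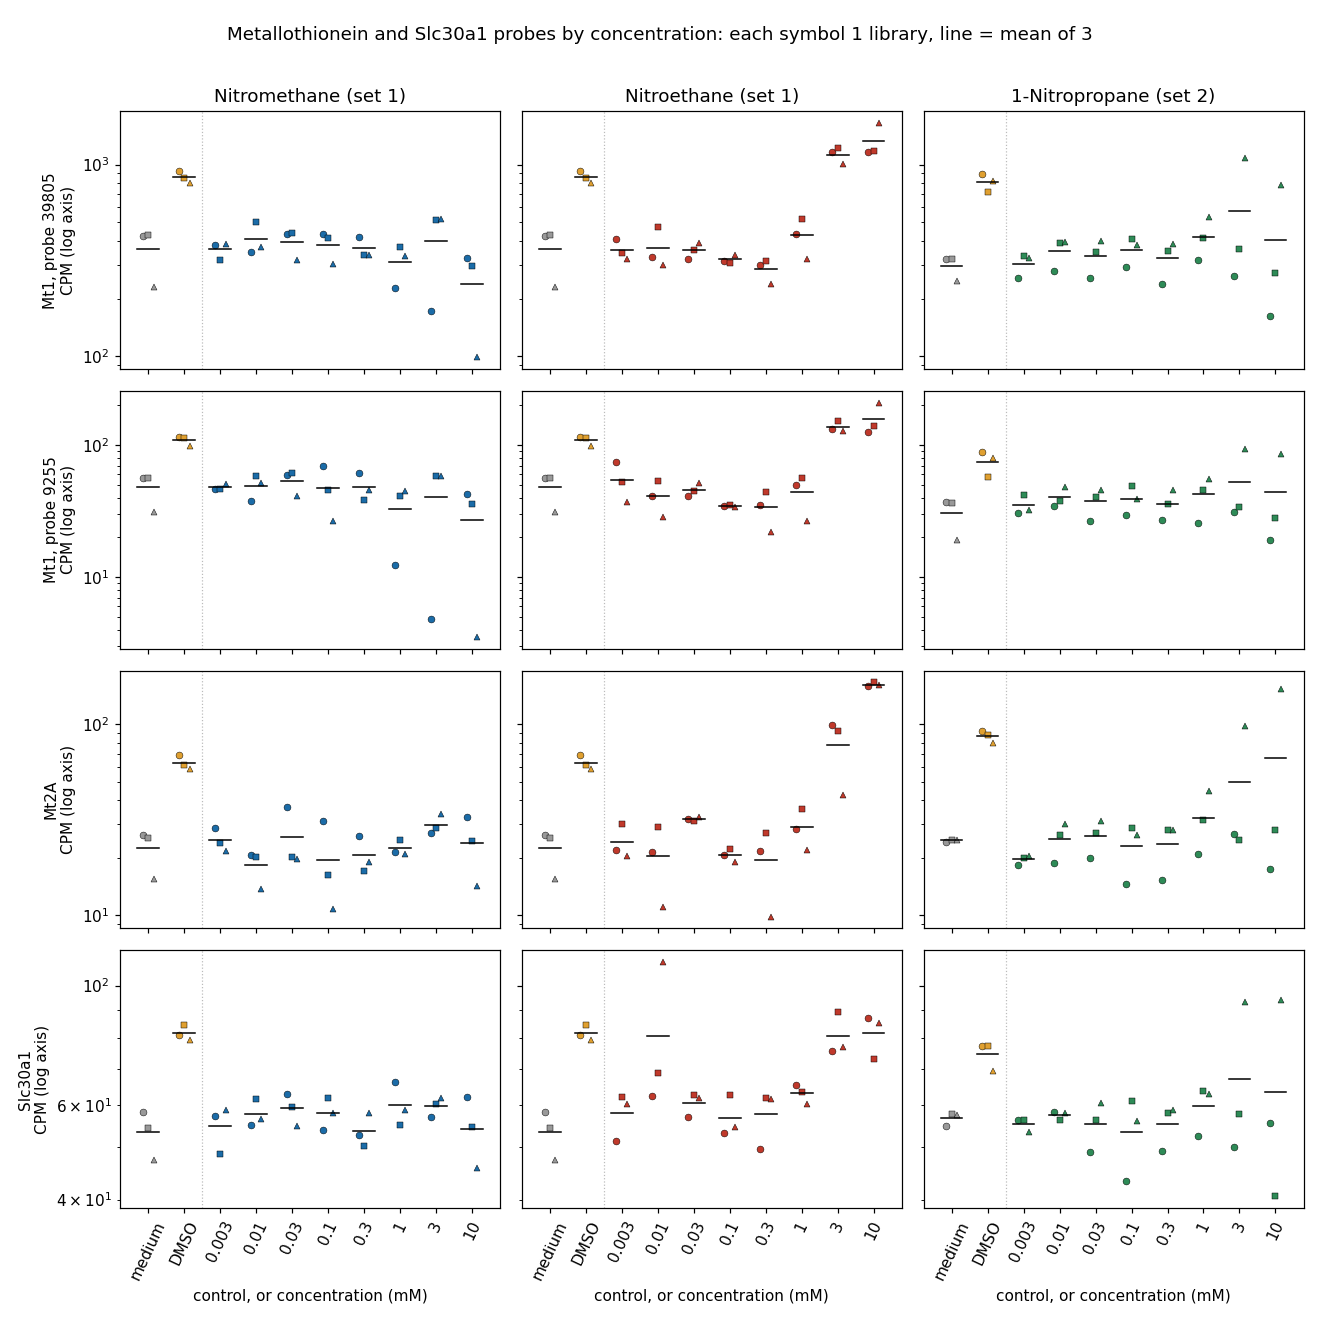
CPM of the 4 probes (rows, log axis) in medium, in DMSO and at each concentration of NM, NE and 1NP (columns). Each symbol is 1 library (circles, squares and triangles are the replicates of a group in the order of their numbers) and each line a mean of 3. NE levels of the metallothioneins stand above medium at 3 and 10 mM, and in 1NP at 3 and 10 mM the triangles lie above the other symbols. NM group means stay near those of medium for Mt2A and Slc30a1. At 10 mM NM the means of both Mt1 probes lie below medium, with 1 library far below the others.

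Against medium, all 4 probes rose at 10 mM NE, where 34% of all probes were called (16.6% higher). The log2 change was 2.84 for Mt2A (SE 0.33, edgeR adjusted p = 1.58e-07), which is 7.15-fold. It was 1.89 (SE 0.23, edgeR adjusted p = 3.36e-07) and 1.73 (SE 0.30, edgeR adjusted p = 5.49e-05) for the Mt1 probes 39805 and 9255, and 0.63 for Slc30a1 (SE 0.20, edgeR adjusted p = 0.0173). At 3 mM, where 11.5% were called (6.15% higher), all 4 rose again, by 1.72, 1.60, 1.87 and 0.67 in the order Mt1 probe 39805, Mt1 probe 9255, Mt2A and Slc30a1. The calls of the 3 metallothionein probes against medium held without any 1 library. Those of Slc30a1 did not: the 10 mM call was lost without medium replicate 3 (0.54), NE replicate 1 (0.51) or NE replicate 3 (0.56), and the 3 mM call without medium replicate 2 or 3 or NE replicate 2 or 3, at 0.59 to 0.71. At 1 mM and below, 0 of 24 values against medium passed edgeR's test and 0 passed by DESeq2, and 1 had an unadjusted p under 0.05. Of all probes, 0.0162% were called against medium at 0.01 mM, 0.0324% at 0.3 mM, 0.219% at 1 mM and 0% at the other low concentrations. The summed hepatocyte markers were 11748 to 15264 CPM at 3 mM NE, above every medium library, and 7137 to 9352 CPM at 10 mM NE, against 8816 to 11018 CPM in medium, which the 10 mM libraries overlapped. The summed cholangiocyte markers were 316.4 to 360.8 CPM at 3 mM and 222.4 to 287.4 CPM at 10 mM NE, against 544.7 to 624.0 CPM in DMSO and 627.0 to 736.8 CPM in medium, with no overlap with either control. The part of either marker list in the result was not tested.

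Against DMSO, Mt2A and 1 of the 2 Mt1 probes rose at 10 mM NE, where 28.9% of all probes were called (13.3% higher, 15.6% lower). Mt2A rose by 1.30 on the log2 scale (SE 0.29, edgeR adjusted p = 0.00143), or 2.46-fold, and remained between 1.23 and 1.37 and past the threshold when each library was left out in turn. Mt1 probe 39805 rose by 0.58 (SE 0.19, edgeR adjusted p = 0.0221), a call that was lost without DMSO replicate 2 (0.58), DMSO replicate 3 (0.52) or NE replicate 3 (0.36). Probe 9255 of the same gene had 0.49 (SE 0.27, edgeR adjusted p = 0.18). Slc30a1 had -0.04 (interval -0.42 to 0.34), so a change beyond about that width in either direction is outside the interval. At 3 mM, where 6.08% of all probes were called, no member passed against DMSO (edgeR; 1 of 4 had an unadjusted p under 0.05, and DESeq2 called 0), with Mt2A at 0.33 (interval -0.24 to 0.90). At 1 mM and below the direction was the reverse. Both Mt1 probes were lower than in DMSO at all 6 concentrations and Mt2A at 5 of 6, for a total of 17 of 24 values called. Of all probes, from the lowest concentration to 1 mM, 1.77%, 0.99%, 1.53%, 2.04%, 3.18% and 1.66% were lower. At 1 mM Mt2A was at -1.20 (SE 0.30, edgeR adjusted p = 0.0239). The same 3 DMSO libraries enter every one of these comparisons.

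Across the 8 NE concentrations, taken as ranks, Mt2A rose by 0.36 on the log2 scale per step (SE 0.056, edgeR adjusted p = 3.82e-05). Mt1 probe 39805 rose by 0.27 per step (SE 0.044, edgeR adjusted p = 5.88e-05) and probe 9255 by 0.24 (SE 0.053, edgeR adjusted p = 0.00114), where 26.1% of all probes had a called slope (13.4% higher). The slope of Slc30a1 was 0.036 (SE 0.029, edgeR adjusted p = 0.379), and without NE 0.01 mM replicate 3 it was 0.07 and passed (edgeR adjusted p = 0.0103). That of probe 9255 was 0.18 and not past the threshold without the 10 mM libraries.

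With nitromethane no difference of the members from plain medium passed the test. At 10 mM Mt2A was at 32.7, 24.5 and 14.2 CPM, against 26.3, 25.6 and 15.6 CPM in medium of set 1, and the groups overlapped. Mt1 probe 39805 was at 326.0, 294.9 and 98.7 CPM at 10 mM NM and at 172.8, 512.8 and 519.3 CPM at 3 mM. Its low value in each case, and the lowest of Mt1 probe 9255 (3.51 CPM at 10 mM and 4.82 CPM at 3 mM), came from the library that correlated poorly with its replicates. Slc30a1 was at 62.0, 54.7 and 45.8 CPM at 10 mM and its 8 group means ran from 53.7 to 60.0 CPM. None of the 32 values against medium passed edgeR's test, 0 of 32 had an unadjusted p under 0.05 and DESeq2 called 0. Of all probes, 2.32% were called against medium at 3 mM, 0.00818% at 1 mM and 0% at each lower concentration. At 10 mM, where 0.662% of all probes were called, the log2 change of Mt2A was 0.05 (interval -0.64 to 0.73) and that of Slc30a1 -0.02 (interval -0.27 to 0.23). The Mt1 probes were at -0.62 (interval -1.38 to 0.14) and -0.84 (interval -2.16 to 0.49). Without the NM libraries that stood apart, replicate 3 of 10 mM among them, the 4 values against medium were 0.32 for Mt2A, 0.11 for Slc30a1, -0.25 for Mt1 probe 39805 and -0.32 for probe 9255, and none passed. The summed cholangiocyte markers were 828.6 to 1221 CPM at 10 mM NM, above every medium and DMSO library, and their part in these values was not tested.

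Against DMSO, 16 of the 32 NM values were called, all lower. Of all probes, 2.21%, 0.499%, 0.965%, 1.17%, 1.71%, 1.09%, 0.188% and 3.26% were lower, from the lowest concentration to the highest. The member calls were Mt2A and Slc30a1 at 7 concentrations each, all but 3 mM, and Mt1 probe 39805 at 2. At 10 mM NM, where 3.26% of all probes were lower, Slc30a1 fell by 0.68 (SE 0.12, edgeR adjusted p = 0.00109), Mt2A by 1.49 (SE 0.34, edgeR adjusted p = 0.00728) and Mt1 probe 39805 by 1.92 (SE 0.38, edgeR adjusted p = 0.00271). Without the 3 NM libraries that stood apart, 29 of 32 were called, all lower, including 7 of 8 of probe 9255, of which 0 were called with them. The shares of all probes above are from the fit with every library, so this increase in calls cannot be set apart from one over the whole panel. At 10 mM the changes were then -0.55 for Slc30a1, -1.21 for Mt2A, -1.54 for Mt1 probe 39805 and -1.56 for probe 9255. No slope over NM concentration passed edgeR's test in any of the 4 probes (Mt2A 0.028, interval -0.044 to 0.10 per step), 0 of 4 had an unadjusted p under 0.05, DESeq2 called 0, and 9.88% of all probes had a called slope.

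1-Nitropropane gave replicates that disagreed at its upper concentrations. At 3 mM Mt2A was at 26.8, 24.9 and 98.0 CPM and at 10 mM at 17.4, 28.1 and 153.4 CPM, against 91.8, 88.2 and 80.0 CPM in DMSO and 24.3, 24.9 and 25.0 CPM in medium of set 2. In both groups replicates 1 and 2 lay near medium and replicate 3 lay above every DMSO library. Replicate 3 was the highest of its group for the other probes as well. Mt1 probe 39805 was at 261.8, 364.2 and 1084 CPM at 3 mM and at 161.5, 271.7 and 780.8 CPM at 10 mM. Slc30a1 was at 50.1, 57.7 and 93.2 CPM at 3 mM and at 55.6, 40.6 and 94.0 CPM at 10 mM, so both its highest and its lowest 1NP libraries were treated at 10 mM. Below 1 mM the 15 libraries held Mt2A at 14.6 to 31.3 CPM (median 26.2) and Slc30a1 at 43.3 to 61.0 CPM (median 56.3).

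No 1NP value passed against medium (edgeR, 0 of 32), while without the filter on low counts 7 of 32 did, all higher and at 1 mM or above. Of all probes, 0.00824%, 0.19%, 0%, 0.0165%, 0%, 0.066%, 0.223% and 10.2% were called against medium, from the lowest concentration to the highest. 2 of the 32 values had an unadjusted p under 0.05, both higher, and DESeq2 called 0. The largest was Mt2A at 10 mM, with a log2 change of 1.55 (SE 0.62, edgeR adjusted p = 0.105), where 10.2% of all probes were called (6.81% higher). It was called without 1NP replicate 1 (1.99, edgeR adjusted p = 0.0262) and was -0.08 without replicate 3, so replicate 3 decided its size. Against DMSO 2 of 32 values were called, Mt1 probe 39805 (-1.51) and Mt2A (-2.24) at 0.003 mM, where 10.7% of all probes were lower. At the higher concentrations 0.132%, 0.463%, 2.41%, 0.529%, 0.562%, 0.256% and 1.14% were lower than DMSO, in rising order of concentration. The first of these calls was lost without any 1 of its 6 libraries and the second without 4 of them. Without 1NP 10 mM replicate 3, 13 of 32 were called, all lower. The shares of all probes above are from the fit with that library, so this increase too cannot be set apart from one over the whole panel. All 4 probes were then lower than DMSO at 10 mM, with Mt2A at -1.99 (edgeR adjusted p = 0.0341) and Slc30a1 at -0.70 (edgeR adjusted p = 0.0333). The slope of Mt2A over 1NP concentration was 0.23 per step (SE 0.062, edgeR adjusted p = 0.0302), where 4.77% of all probes had a called slope (3.75% higher). It was 0.13 (edgeR adjusted p = 0.278) without 10 mM replicate 3 and 0.045 (edgeR adjusted p = 0.655) without replicate 3 of both 3 and 10 mM. The slopes of the other 3 probes did not pass.

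The 3 nitroalkanes were compared at matched concentrations, 8 concentrations and 4 probes for each of 5 contrasts, 160 values in all, with p-values adjusted over all probes of the panel. NE and NM share set 1 and were compared directly. 1NP is in set 2, so its difference from the controls of set 2 was compared with that of NM or NE from the controls of set 1. For NE against NM, 6 of 32 values were called, all higher in NE and at 3 and 10 mM, and 0% of all probes were called at each lower concentration. At 10 mM, where 23.5% of all probes differed (10.2% higher), Mt2A was at 158.0, 165.8 and 159.8 CPM with NE and at 32.7, 24.5 and 14.2 CPM with NM. No NE library overlapped an NM library for any of the 4 probes. The log2 differences at 10 mM were 2.51 (SE 0.48, edgeR adjusted p = 0.00184) for Mt1 probe 39805, 2.57 (SE 0.63, edgeR adjusted p = 0.00744) for probe 9255, 2.79 (SE 0.56, edgeR adjusted p = 0.00237) for Mt2A and 0.65 (SE 0.23, edgeR adjusted p = 0.049) for Slc30a1. Without the 10 mM libraries that stood apart they were 2.12, 2.04, 2.51 and 0.51, all called. The call of Slc30a1 was lost on leaving out any of 4 libraries, at 0.51 to 0.67. The summed cholangiocyte markers were lower in every NE library than in every NM library at 10 mM, and their part in the difference was not tested. At 3 mM, where 2.4% differed (0.915% higher), Mt1 probe 39805 was at 1.55 (SE 0.40, edgeR adjusted p = 0.0431) and Mt2A at 1.46 (SE 0.38, edgeR adjusted p = 0.0433). Without NM 3 mM replicate 1, the library that stood apart, they were 1.17 (edgeR adjusted p = 0.275) and 1.37 (edgeR adjusted p = 0.252), and both calls ended. Ethyl and methyl thus differed in these readouts at 10 mM. At 1 mM and below no difference between NE and NM passed in the 4 probes (edgeR, where 0% of all probes were called), and at 1 mM Mt2A had 0.38 (interval -0.09 to 0.85).

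For 1NP, 0 of 128 differences in effect passed edgeR's test, and 20 did without the filter on low counts, 11 higher and 9 lower in 1NP. Relative to DMSO, 1NP minus NM was called for 1.36% of all probes at 0.003 mM, 0.00833% at 0.01 mM, 0.00832% at 0.03 mM, 0.764% at 0.1 mM, 0.025% at 3 mM and 0% elsewhere, and 1NP minus NE for 0.108%, 0.00833%, 0.00832% and 6.14% at the 4 lowest concentrations, 0.0408% at 10 mM and 0% elsewhere. Relative to medium, 1NP minus NM was called for 0.225%, 0.0499% and 0.664% of all probes at 0.01, 0.03 and 0.1 mM and 0% elsewhere, and 1NP minus NE for 0.267% and 0.0333% at 0.01 and 0.03 mM, 0.0245% at 10 mM and 0% elsewhere. 8 of the 128 values had an unadjusted p under 0.05, and DESeq2 called 1. The smallest edgeR adjusted p was 0.0565, for Mt2A at 0.003 mM against NM. At 10 mM, relative to medium, Mt2A in 1NP minus NE was -1.30 (interval -2.77 to 0.16) and in 1NP minus NM 1.49 (interval 0.01 to 2.97). Relative to DMSO the same differences were -1.68 (interval -3.12 to -0.24) and 1.11 (interval -0.34 to 2.56). At 3 mM, relative to DMSO, 1NP minus NE was -1.16 (interval -2.18 to -0.15) and 1NP minus NM 0.30 (interval -0.72 to 1.32). The intervals are wide enough to hold large differences between propyl and either shorter chain. They rested on replicate 3: without 1NP 10 mM replicate 3 the 10 mM difference of Mt2A from NE was -2.90 relative to medium (edgeR adjusted p = 2.76e-05) and -3.30 relative to DMSO (edgeR adjusted p = 4.28e-06). Without 1NP 3 mM replicate 3, the 3 mM difference from NE was -1.75 (edgeR adjusted p = 0.0273) and -2.14 (edgeR adjusted p = 0.00684). The 10 mM differences from NM are given only with every library, although Mt2A in 1NP 10 mM against medium depended on replicate 3. Without the libraries that stood apart, 0 of 12 values of 1NP minus NM passed edgeR's test relative to medium and 0 of 12 relative to DMSO.

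**Figure D2:**
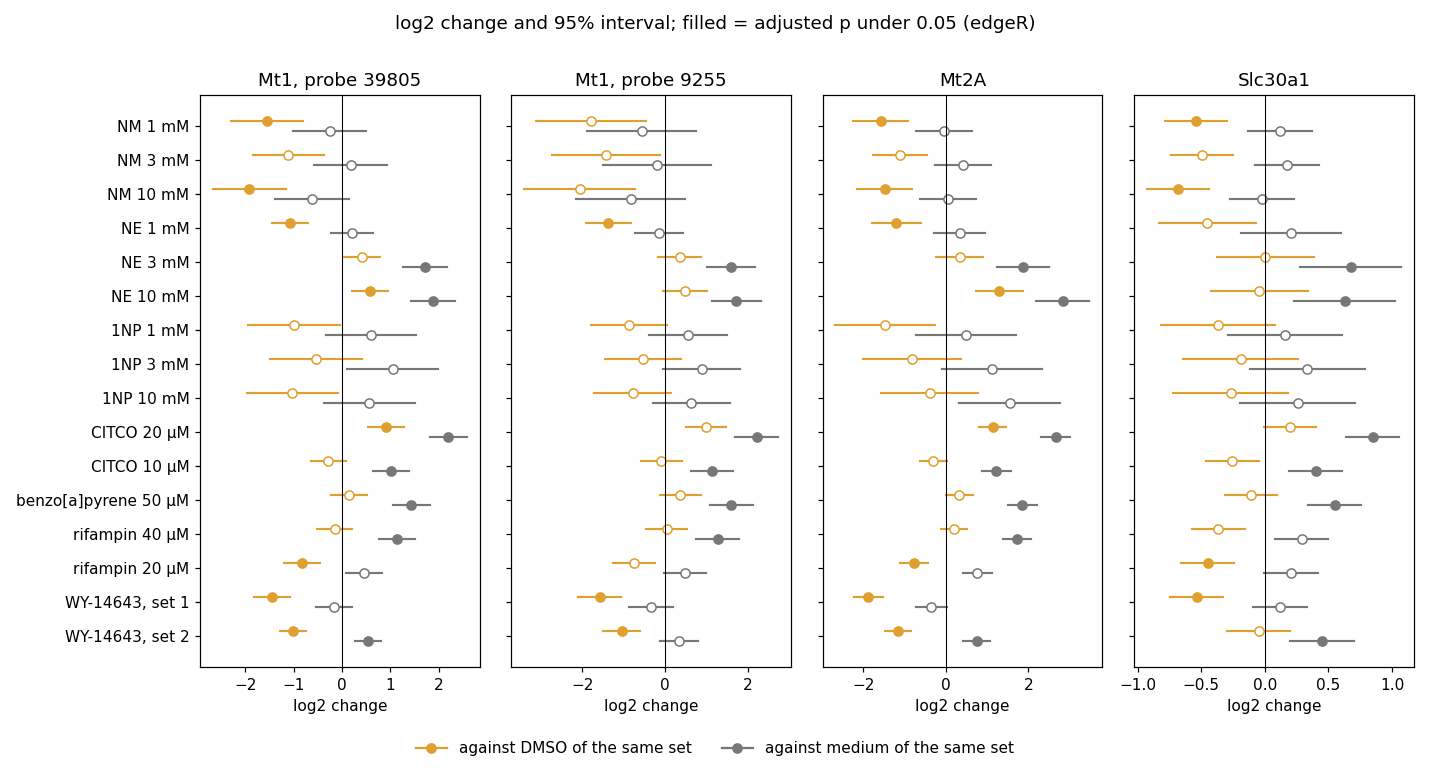
log2 change with its 95% interval for the 4 probes (panels) in each treated group (rows), against DMSO (orange) and medium (grey) of the same set. Filled symbols passed an adjusted p under 0.05 in edgeR. NE at 3 and 10 mM, CITCO, benzo[a]pyrene and rifampin 40 µM lie right of 0 against medium for the metallothioneins, while NM and WY-14643 of set 1 lie left of 0 against DMSO.

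CITCO at 20 µM gave the highest group mean of both Mt1 probes and of Slc30a1 in the study. Mt1 probe 39805 was at 1822, 1736 and 1385 CPM at 20 µM and at 720.7, 821.3 and 621.7 CPM at 10 µM. Mt2A was at 160.5, 127.5 and 133.8 CPM at 20 µM and at 53.9, 55.5 and 46.6 CPM at 10 µM, and Slc30a1 at 94.5, 95.9 and 94.6 CPM and at 76.0, 71.4 and 61.0 CPM. All libraries at 20 µM exceeded every library at 10 µM, every DMSO library and every medium library in the 3 genes. Between the doses, where 1.93% of all probes differed (0.818% higher), all 4 probes were higher at 20 µM, by 1.19, 1.09, 1.43 and 0.45 in the order Mt1 probe 39805, Mt1 probe 9255, Mt2A and Slc30a1, with edgeR adjusted p of 0.00202, 0.0347, 2.02e-05 and 0.0178. On leaving out single libraries the call of probe 9255 was lost in 4 of 6 cases and that of Slc30a1 in 3. Against DMSO, 20 µM CITCO raised Mt2A by 1.13 (SE 0.16, edgeR adjusted p = 0.000288) and Mt1 probe 39805 by 0.91 (SE 0.19, edgeR adjusted p = 0.0236), where only 0.843% of all probes were called (0.372% higher). The second call was lost without any 1 of 5 of the 6 libraries, at 0.84 to 0.97. Probe 9255 had 0.99 (edgeR adjusted p = 0.087) and Slc30a1 0.19 (edgeR adjusted p = 0.534). Against medium the changes at 20 µM were 2.20, 2.22, 2.66 and 0.85, all called, where 14.7% were (7.33% higher). At 10 µM they were 1.01, 1.14, 1.23 and 0.40, all called, where 2.58% were (1.83% higher). The last of these was lost without any of 4 libraries. At 10 µM none of the 4 passed against DMSO (edgeR, where 0.149% of all probes were called; 1 of 4 had an unadjusted p under 0.05, lower, and DESeq2 called 0). The summed hepatocyte markers at 20 µM, 13060 to 15287 CPM, lay near the DMSO range and above medium.

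**Figure D3:**
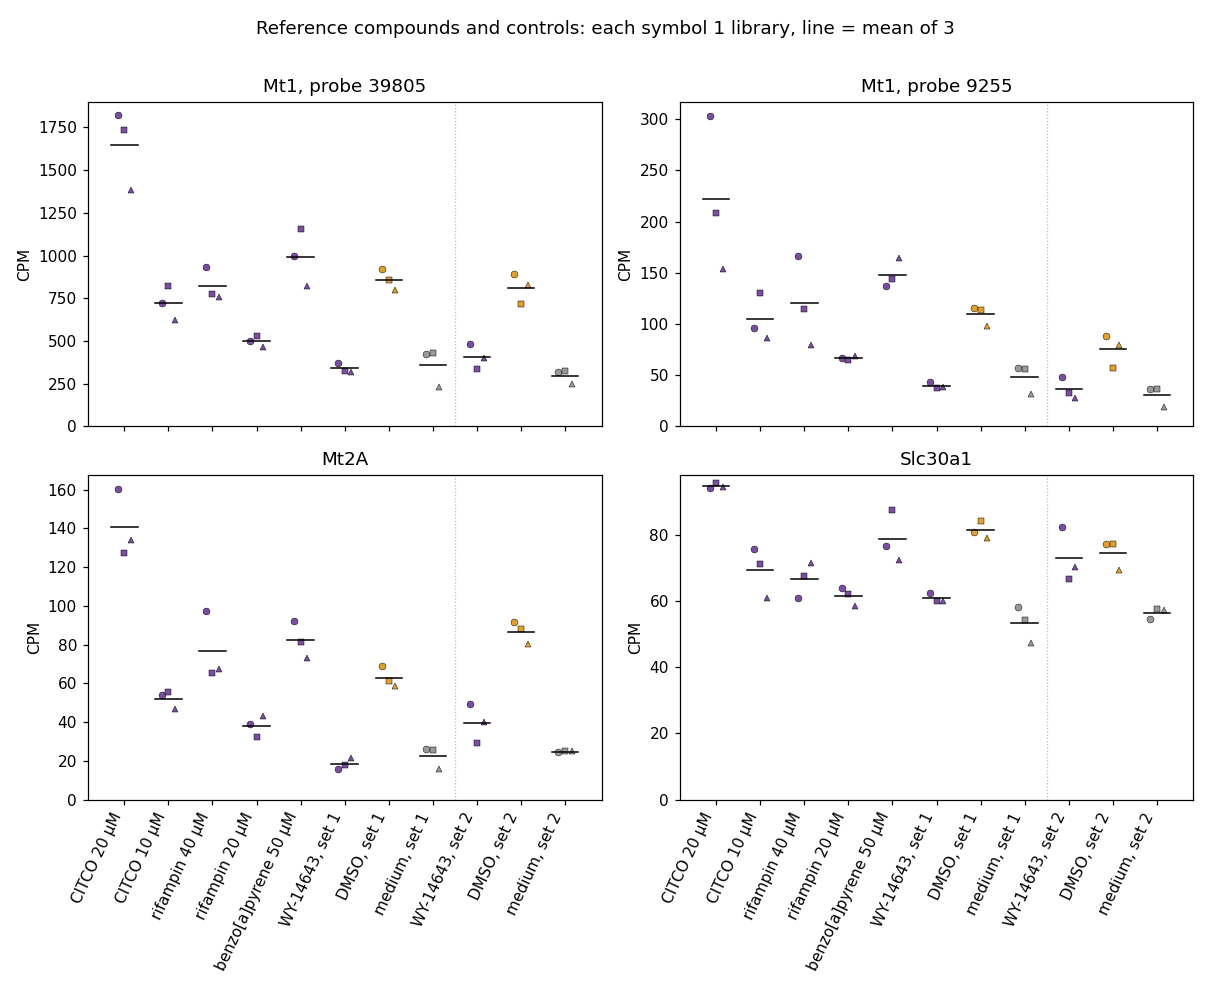
CPM of the 4 probes (panels) in CITCO, rifampin, benzo[a]pyrene and WY-14643 groups and in DMSO and medium, with set 2 right of the dotted line. Each symbol is 1 library and each line a mean of 3. CITCO at 20 µM is highest in every panel, and DMSO lies above medium in both sets.

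Benzo[a]pyrene at 50 µM placed the members at the level of DMSO or a little above. Mt2A was at 92.1, 81.2 and 73.0 CPM, against 69.1, 61.1 and 58.5 CPM in DMSO and 26.3, 25.6 and 15.6 CPM in medium, with no overlap with either control. Slc30a1 was at 76.7, 87.8 and 72.5 CPM and overlapped DMSO. Against medium, where 19.7% of all probes were called (9.3% higher), all 4 rose: 1.44 (SE 0.19) for Mt1 probe 39805, 1.60 (SE 0.26) for probe 9255, 1.85 (SE 0.18) for Mt2A and 0.55 (SE 0.11) for Slc30a1, with edgeR adjusted p of 1.67e-05, 0.000219, 1.83e-08 and 0.000298. Against DMSO, where 9.17% were called (4.1% higher, 5.07% lower), none passed (edgeR, 0 of 4 with an unadjusted p under 0.05, and DESeq2 called 0). Mt2A had 0.32 (interval -0.0014 to 0.65).

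Rifampin, an activator of human PXR, gave 2 levels. Mt2A was at 97.4, 65.5 and 67.6 CPM at 40 µM and at 38.8, 32.3 and 43.2 CPM at 20 µM. The 20 µM libraries lay between DMSO and medium without overlapping either, and the 40 µM libraries overlapped DMSO. Against DMSO, 20 µM rifampin had lower Mt1 probe 39805 (-0.83, edgeR adjusted p = 0.0203), Mt2A (-0.77, edgeR adjusted p = 0.012) and Slc30a1 (-0.45, edgeR adjusted p = 0.0154), where 2.87% of all probes were called (1.77% lower). Against medium, where 0.273% were called, none of the 4 passed at 20 µM (edgeR; 2 of 4 had an unadjusted p under 0.05, higher, and DESeq2 called Mt2A). At 40 µM, where 3.31% were called against medium (1.43% higher), both Mt1 probes (1.14 and 1.27) and Mt2A (1.72, edgeR adjusted p = 4.17e-06) rose and Slc30a1 had 0.29 (edgeR adjusted p = 0.148). No member passed against DMSO at 40 µM, where 1.69% were called (edgeR; 1 of 4 had an unadjusted p under 0.05, and DESeq2 called Slc30a1, lower). Between 40 and 20 µM, where 0% of all probes were called, no member passed (edgeR; 3 of 4 had an unadjusted p under 0.05, higher at 40 µM). Mt2A there had 0.97 (SE 0.17, edgeR adjusted p = 0.0816), and DESeq2 called it with an adjusted p of 0.00024, and Mt1 probe 39805 with 0.0387.

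WY-14643 was the only treatment present in both sets besides the controls. The change of Mt2A from medium differed between the sets by a test of the difference, and that from DMSO did not pass the same test. In set 1 Mt2A was at 15.9, 17.8 and 21.6 CPM, overlapping medium and below DMSO. In set 2 it was at 49.2, 28.9 and 40.0 CPM, above medium at 24.3, 24.9 and 25.0 CPM and below DMSO. Against DMSO of set 1, where 4.88% of all probes were called (2.54% lower), all 4 probes fell: by 1.45 (SE 0.19) for Mt1 probe 39805, 1.58 (SE 0.27) for probe 9255, 1.88 (SE 0.18, edgeR adjusted p = 1.51e-07) for Mt2A and 0.54 (SE 0.11) for Slc30a1. Against DMSO of set 2, where 0.901% were called (0.234% lower), the metallothionein probes fell by 1.01, 1.05 and 1.16, and Slc30a1 had -0.05 (interval -0.30 to 0.20). Against medium of set 1, where 5.8% were called, none passed (edgeR, 0 of 4 with an unadjusted p under 0.05, and DESeq2 called 0). Against medium of set 2, where 16.9% were called (8.92% higher), Mt1 probe 39805 (0.55), Mt2A (0.75, edgeR adjusted p = 0.00512) and Slc30a1 (0.45) rose. All 3 calls were lost without WY-14643 replicate 4, at 0.40, 0.54 and 0.35. The difference between sets in the change from medium was 1.09 for Mt2A (SE 0.27, edgeR adjusted p = 0.0105), where 9.39% of all probes differed. For the other 3 probes it did not pass.

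Over all 35 groups the mean level spanned 6.87-fold and 8.16-fold for the Mt1 probes, 8.82-fold for Mt2A and 1.78-fold for Slc30a1. Mt1 probe 39805 ran from 239.8 ± 123 CPM in NM 10 mM to 1647.6 ± 231 CPM in CITCO 20 µM, and probe 9255 from 27.2 ± 20.8 CPM to 221.7 ± 75.3 CPM in the same 2 groups (SD, n = 3 each). Mt2A ran from 18.3 ± 3.87 CPM in NM 0.01 mM to 161.2 ± 4.08 CPM in NE 10 mM, followed by CITCO 20 µM at 140.6 ± 17.5 CPM. Slc30a1 ran from 53.3 ± 5.50 CPM in medium of set 1 to 95.01 ± 0.815 CPM in CITCO 20 µM. Neighbours in the order overlapped in all 34 steps for each Mt1 probe, in 32 of 34 for Mt2A and in 33 of 34 for Slc30a1, so the order is one of ranges and not of separate levels.

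The members followed each other across groups, as a description, since the groups share plates, libraries and controls. Over the 24 group means of set 1, Pearson's r of log levels with Mt1 probe 39805 was 0.97 for probe 9255, 0.94 for Mt2A and 0.88 for Slc30a1. Over the 11 group means of set 2 it was 0.96, 0.88 and 0.79. Of 7618 probes with a mean of at least 10 CPM, ranked by the lower r of the 2 sets, those most like Mt1 probe 39805 included its second probe, Rbp4 (0.89 and 0.89), a retinol carrier, Mt2A and Fgb (0.85 and 0.96), a fibrinogen chain, and Slc30a1 was 14th. Those most like Slc30a1 were Rbp4 (0.89 and 0.87), Bhmt2 (0.85 and 0.86), Csad (0.90 and 0.85), Tgoln2 (0.84 and 0.87) and Slc7a2 (0.83 and 0.86), with Mt2A 7th, Mt1 probe 39805 15th and probe 9255 135th.

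Within a library, Mt2A did not move in fixed proportion to Mt1. The log2 ratio of Mt2A counts to Mt1 probe 39805 counts was -3.36 to -2.83 in NE 10 mM, against -3.81 to -3.74 in DMSO and -4.07 to -3.88 in medium of set 1. The 3 groups did not overlap, and NE 10 mM was highest. In NM 10 mM the ratio was -3.59 to -2.80, also above both controls, although neither probe passed the test against medium there. It lay above both controls as well in rifampin 40 µM (-3.56 to -3.26) and in NE 0.03 mM (-3.57 to -3.33), where no member was called against medium. In NE 3 mM, where the metallothioneins rose against medium, it was -4.56 to -3.54 and overlapped both. In 1NP 10 mM it was -3.27 to -2.35, against -3.37 to -3.02 in DMSO and -3.72 to -3.30 in medium of set 2, overlapping DMSO. The 2 Mt1 probes, which address the same gene, parted in the NM libraries that stood apart: the log2 ratio of probe 9255 to 39805 reached -4.81 in NM 10 mM and -5.16 in NM 3 mM, against -3.02 to -2.91 in DMSO of set 1. These ratios were not tested.

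**Figure D4:**
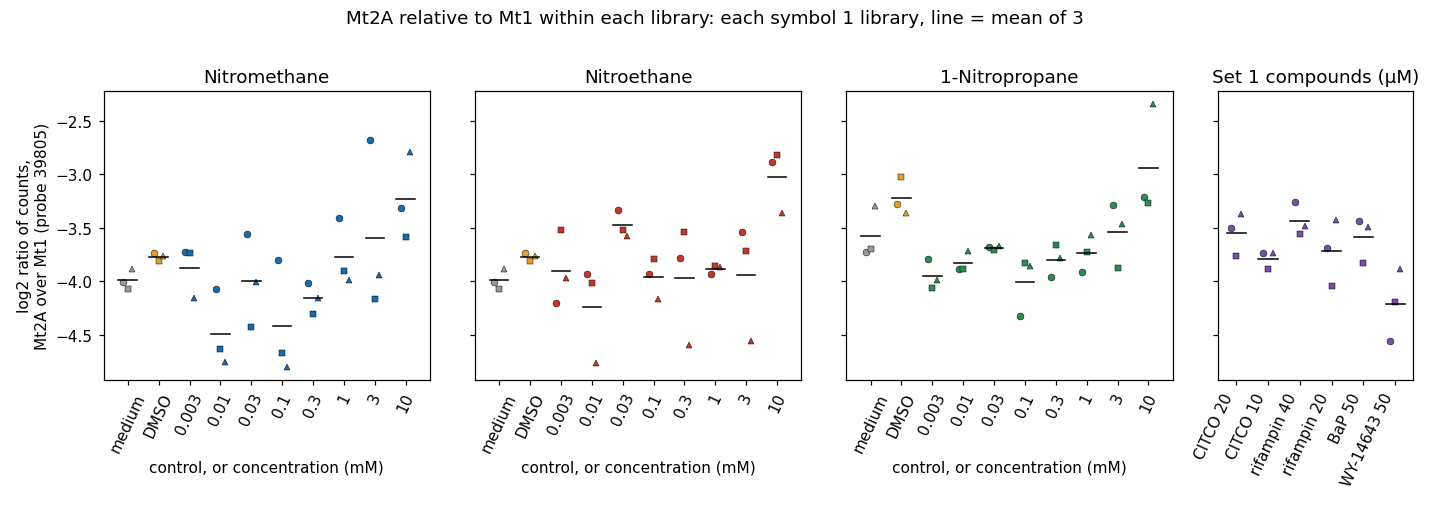
log2 ratio of Mt2A to Mt1 (probe 39805) counts within each library, by control or concentration for NM, NE and 1NP and for the other set 1 compounds. Each symbol is 1 library and each line a mean of 3. The 10 mM groups of NM and NE lie above the medium and DMSO libraries of set 1, and so do NE 0.03 mM and rifampin 40 µM.

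Other zinc transporters were also called at 10 mM NE, where 16.6% of all probes were higher and 17.4% lower against medium, and 13.3% higher and 15.6% lower against DMSO. Of the 8 zinc exporters tested (Slc30a family, Slc30a1 among them), 3 rose and 1 fell at 10 mM NE against medium, with a list median of 0.20 beside 0.03 over all probes, and 1 rose and 1 fell against DMSO. Of 10 importers (Slc39a family), 1 rose and 1 fell against medium and 2 rose and 1 fell against DMSO. Outside the rule for naming genes, the largest importer change against DMSO was Slc39a10 at 2.47 (SE 0.65, edgeR adjusted p = 0.00522), with 1.22 against medium (SE 0.61, edgeR adjusted p = 0.126). Slc39a10 also had 1.84 in NM 10 mM against DMSO (edgeR adjusted p = 0.106). In DMSO against medium of set 1 it had -1.27 (SE 0.96, edgeR adjusted p = 0.546). Slc39a4, also outside the rule, fell by 0.76 against DMSO (edgeR adjusted p = 0.0135) and had -0.39 against medium (edgeR adjusted p = 0.204). Slc39a14 (ZIP14), an importer of zinc and iron that liver is known to induce in the acute phase, was at 286.8, 279.6 and 297.2 CPM in NE 10 mM, against 126.1, 128.8 and 118.5 CPM in DMSO and 84.3, 88.4 and 83.9 CPM in medium. The groups did not overlap, and the log2 changes were 1.16 against DMSO (edgeR adjusted p = 3.55e-05) and 1.75 against medium (edgeR adjusted p = 5.85e-08). Slc30a7, which loads zinc into the early secretory pathway, was at 82.4, 81.8 and 66.3 CPM in NE 10 mM, against 31.1, 30.5 and 32.8 CPM in DMSO and 26.1, 25.9 and 26.99 CPM in medium. It rose by 1.23 against DMSO (edgeR adjusted p = 0.000112) and 1.54 against medium (edgeR adjusted p = 4.87e-06). Slc30a4, another exporter into vesicles, fell by 0.67 against DMSO and by 0.71 against medium. Outside the rule for naming genes and chosen after its values were seen, Slc30a10, a transporter known chiefly for manganese, was at 14.0, 12.8 and 10.4 CPM in NE 10 mM and at 2.67, 3.76 and 2.51 CPM in medium, a log2 change of 2.05, and had 0.48 against DMSO (edgeR adjusted p = 0.191).

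At 3 mM NE, where 6.15% of all probes were higher than in medium, 4 of 8 exporters and 3 of 10 importers rose against medium and none fell. Slc30a7 (0.92), Slc39a7 (0.76), which releases zinc from the endoplasmic reticulum and Golgi, and Slc39a11 (0.88) also rose against DMSO, calls that were lost for each on leaving out 2 or more of the 6 libraries. At 10 mM NM the exporter and importer medians against medium were both 0.06, beside 0.03 over all probes. Slc30a7, named for NM after its values were seen, was at 41.8, 45.7 and 42.2 CPM in NM 10 mM. Every one of these libraries lay above every DMSO and medium library of set 1, so a higher level of Slc30a7 was not particular to NE. Between NE and NM at 10 mM, where 10.2% of all probes were higher and 13.2% lower with NE, Slc39a14 was higher with NE by 1.65 (edgeR adjusted p = 0.00103), Slc30a7 by 0.88 (edgeR adjusted p = 0.0187) and, both named after their values were seen, Slc30a10 was higher by 1.61 (edgeR adjusted p = 0.0109) and the importer Slc39a6 was lower with NE, at -0.88 (edgeR adjusted p = 0.0296). Slc39a6 was low, at 6.44, 6.13 and 4.22 CPM with NE and at 10.1, 8.72 and 13.3 CPM with NM. With CITCO at 20 µM, where 7.33% of all probes were higher than in medium, 5 of 8 exporters and 2 of 10 importers rose against medium, with an exporter median of 0.45 beside -0.01 over all probes. Against DMSO the exporter median was 0.16. Benzo[a]pyrene raised Slc39a4, an importer of the plasma membrane (0.43 against DMSO, 0.79 against medium), and Slc39a3 (0.65 and 0.62) and lowered Slc39a11 (-0.85 and -0.70) against both controls. The DMSO calls of these 3 were lost on leaving out single libraries, and the Slc39a11 call against medium was lost in 4 of 6 cases. The benzo[a]pyrene libraries of Slc39a11, at 6.92, 8.73 and 15.2 CPM, overlapped both controls.

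**Figure D5:**
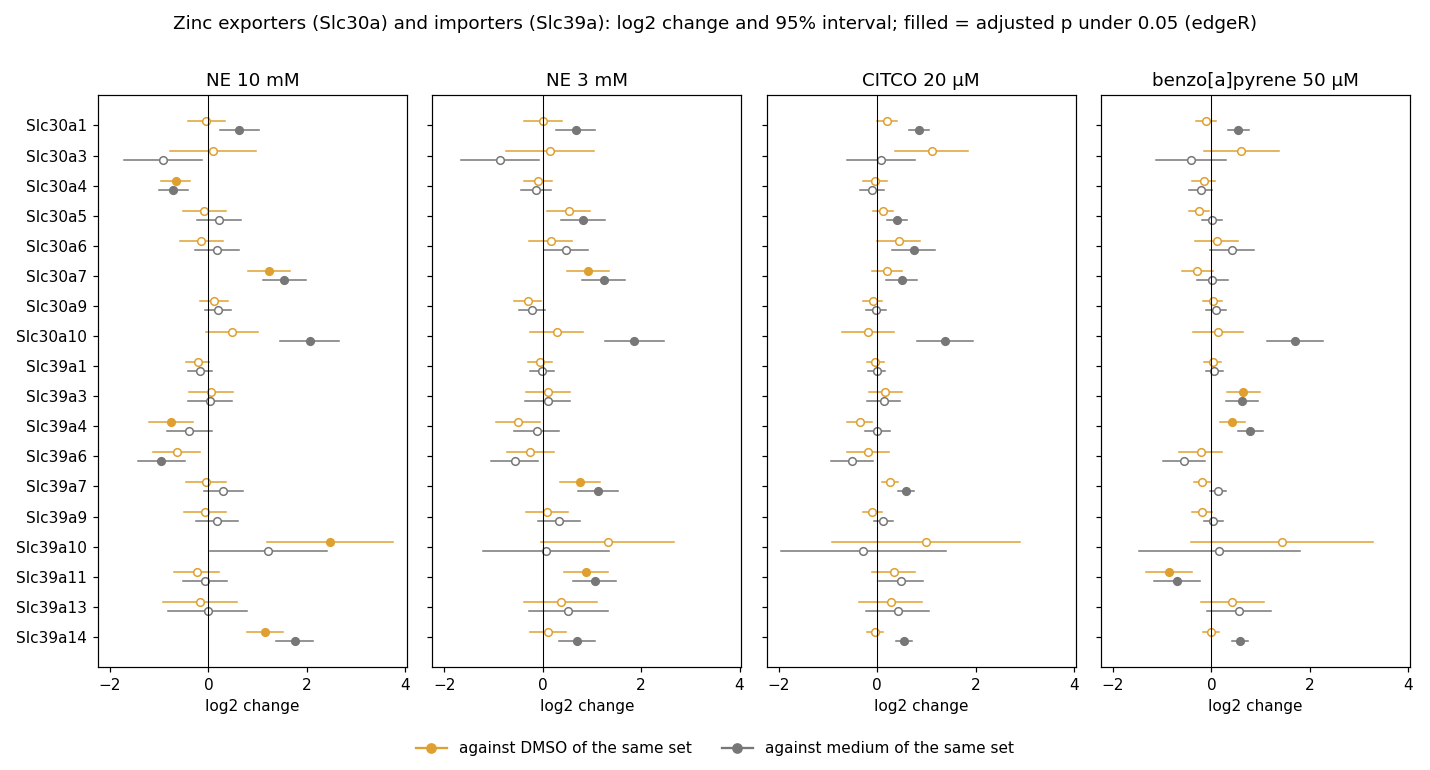
log2 change with its 95% interval for zinc exporters and importers (rows) in NE 10 mM, NE 3 mM, CITCO 20 µM and benzo[a]pyrene 50 µM, against DMSO (orange) and medium (grey). Filled symbols passed an adjusted p under 0.05 in edgeR. In NE 10 mM, Slc30a7 and Slc39a14 lie right of 0 against both controls, while Slc30a1 does so against medium only.

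Mtf1 itself was not called in any comparison and averaged 19.7 ± 2.77 CPM in NE 10 mM, 24.0 ± 5.22 CPM in DMSO and 23.1 ± 2.00 CPM in medium of set 1 (SD, n = 3 each). Of 6 probes for other genes reported as Mtf1 targets, 2 rose and 3 fell at 10 mM NE against DMSO, and 1 rose and 3 fell against medium. Those named here were chosen after their values were seen. Gclc, the catalytic subunit of the first enzyme of glutathione synthesis, rose by 0.98 against DMSO and by 1.43 against medium. Both probes of Selenow, a selenoprotein, fell, by 1.10 and 1.00 against DMSO and by 1.29 and 1.20 against medium, and Ndrg1 fell by 0.56 and 0.79.

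The other routes to the metallothionein promoters were read from lists of their known targets. At 10 mM NE, 5 of 7 glucocorticoid-responsive genes rose against DMSO, where 13.3% of all probes were higher, and 6 of 7 against medium, where 16.6% were, and none fell in either. The list median was 0.68 beside 0.03 over all probes against DMSO. Tat, tyrosine aminotransferase, averaged 60.0 CPM in NE 10 mM, 19.3 CPM in DMSO and 16.2 CPM in medium, and rose by 1.58 and 1.89. Zbtb16, a zinc-finger factor induced by glucocorticoids, rose by 1.19 and 1.65. Of 7 oxidative stress genes, 5 rose against DMSO and 4 against medium, among them Txnrd1, thioredoxin reductase, by 1.58 and 1.70. Of 13 probes of STAT3 and acute phase genes, 8 fell and 0 rose against DMSO, where 15.6% of all probes were lower. Against medium, where 17.4% were lower, 4 fell and 1 rose, Crp, an acute phase protein of liver, by 1.43 (named after its values were seen). The list median was -1.02 against DMSO and -0.14 against medium, and the same list was higher in DMSO than in medium. The acute phase protein haptoglobin, Hp, averaged 18.3 CPM in NE 10 mM, 138.7 CPM in DMSO and 57.9 CPM in medium, and fell by 2.95 and 1.63. A2m, alpha-2-macroglobulin, fell by 4.26 and 3.17 at 1 of its probes.

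In DMSO against medium, where the metallothioneins rose, the acute phase list was higher, at 10 of 13 probes in set 1, where 3.88% of all probes were higher, and 8 of 13 in set 2, where 12.4% were, with medians of 1.05 and 1.09, beside -0.01 and -0.02 over all probes. At 20 µM CITCO 9 of 13 were higher than in medium, where 7.33% of all probes were, and the list median against DMSO was 0.02. Of the glucocorticoid genes, Fkbp5 alone was called in DMSO against medium of set 1 (0.65). In set 2 Fkbp5, Sgk1 and Cebpd were (0.47, 0.81 and 1.25), all higher. At 20 µM CITCO Fkbp5 (0.77) and Zbtb16 (1.07) were higher than in medium, and none passed against DMSO (0.843% of all probes called). At 3 mM NE against DMSO (6.08% called), Tat (0.87), Dusp1 (0.38) and Fkbp5 (0.39) were higher and Sgk1 (-0.69) lower. These were named after their values were seen. At 50 µM benzo[a]pyrene 4 of 7 oxidative stress genes were higher than in DMSO (4.1% of all probes), led by Nqo1 at 4.07, and 7 of 13 acute phase probes were lower (5.07% of all probes). Against medium, 5 of the 13 were higher (9.3% of all probes) and 2 lower (10.4%). The part of any of these lists in the metallothionein result was not tested. Of the probes for genes of other metals, 5 of 11 for iron rose against medium at 10 mM NE and none fell, and against DMSO 2 rose and 2 fell. Hfe had 2 of the iron probes, of which 1 rose against medium (0.73) and the other was not called (0.28). Of 11 probes for copper, 2 rose and 2 fell against medium, and 1 rose and 4 fell against DMSO. The shares of all probes that were higher and lower there are those given for the zinc transporters.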

How the data were processed

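Primary rat hepatocytes were profiled by TempO-Seq in 105 libraries of 35 groups. The deposited values are counts of reads per detector probe in a table of the whole series, not normalized, per the file header and the whole numbers in it. Among the tools listed, without roles, in the submitters' processing notes are DESeq2 1.28.1, Bowtie, FastQC and R 3.5.3. Neither the genome build nor the aligner settings were given there. The labels name the panel a human whole-transcriptome panel, although the probe symbols in the table are those of rat genes. Reads carried no molecular identifiers, so counts include amplification copies.

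CPM were computed from the counts and library totals. Tests used edgeR 4.0.16 in R 4.3.3 (TMM, filterByExpr with a minimum count of 10 and total of 15, robust quasi-likelihood fit), with limma 3.58.1 and DESeq2 1.42.0 as an alternative. Each nitroalkane was fitted with 1 control group at a time (27 libraries), the other compounds of set 1 together (24), those of set 2 together (9), compounds at 1 concentration with both controls of both sets (21), and the concentration rank, 1 to 8, within a compound (24). Adjusted p are Benjamini-Hochberg values over all probes that passed the filter, and a call is an adjusted p under 0.05. SE were taken as the size of the log2 change over the square root of F, and 95% intervals as 1.96 SE. All 4 member probes passed the filter in every fit. A probe of the wider lists is named for a comparison where it was called with 1 sign against both DMSO and medium, averaged at least 10 CPM and did not overlap either control, up to 8 per comparison by size, together with all zinc transporters called against both controls. Any other is marked where it stands.

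The members and gene lists were chosen with earlier results of these data known. Scripts were tested on simulated counts. No 2 libraries agreed within sampling noise. Replicate numbers were not taken to pair the samples: 1 of 56 pairs of compared groups that share numbers had every correlation over 0.1. The 1NP groups share none with their controls. Between 1NP concentrations, 40 of 84 correlations of same-numbered libraries were over 0.1 (highest 0.567), and 4 of 28 pairs of groups had every one over 0.1. Formaldehyde, which the protocol also lists, was not analysed here. Alternatives tried were other normalizations, no filter, DESeq2, a replicate block, only the groups compared, all libraries of a set in 1 fit, each library left out, and the libraries that stood apart left out, the last chosen after seeing the data.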

Additional observations from a re-analysis of the deposited data

Results flagged for a closer look

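The change of Mt2A with WY-14643 from medium differed between the sets by 1.09 on the log2 scale (SE 0.27, edgeR adjusted p = 0.0105), by a test of the difference between set 2 and set 1. Mt2A had a log2 change of 0.75 in set 2 and -0.35 in set 1, each against its own medium. It was higher than every medium library in 3 of 3 WY-14643 libraries of set 2. The wells of both sets are titled 50 µM, while the library names of set 2 read 100 µM, so the contrast may not be the same in both. Its part in the result was not tested. Mt1 probe 39805 had a difference of 0.70 in the same test (edgeR adjusted p = 0.0720), which did not pass. Taken from DMSO in place of medium, the difference of Mt2A between the sets was 0.72 (SE 0.25, edgeR adjusted p = 0.868) and did not pass. Its unadjusted p in edgeR was 0.00755, and Slc30a1 had 0.49 with an unadjusted p of 0.00321, where 0% of all probes were called. This does not show that the changes from DMSO were equal.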

How the results depend on the processing

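No called value changed sign under any alternative run. For Mt2A, these calls moved. Without a filter on low counts, 1NP 10 mM against medium was called at 1.52. With all libraries of a set in 1 fit, CITCO 20 µM against DMSO (1.14) and WY-14643 of set 2 against medium (0.745) were not called. The 1NP slope was not called without the library that stood apart (0.13), without replicate 3 of 3 and 10 mM (0.045) or without the 10 mM libraries (0.18). Leaving out 1 library at a time gave -0.0815 to 1.99 for 1NP 10 mM against medium, 0.54 to 0.94 for WY-14643 of set 2 against medium and 0.13 to 0.26 for the 1NP slope. It gave 2.62 to 2.96 for NE 10 mM against medium and 1.66 to 2.17 for NE 3 mM against medium.

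Over the 4 probes, the direction and side of the threshold were kept in 421 of 436 values with DESeq2, 434 of 436 with its size factors, 386 of 436 without the filter, 361 of 424 with only the groups compared, 380 of 424 with all libraries of a set in 1 fit, 3453 of 3600 with 1 library left out and 161 of 196 without the libraries that stood apart. The count of NM values lower than DMSO was 16 and ranged from 11 without the filter to 29 without those libraries, and that of 1NP was 2 and ranged from 1 without the filter to 20 with only the groups compared. NE above NM was called for 6 values, 2 with only the groups compared and 8 with all libraries in 1 fit. Without the filter it was called for 4, and NE below NM for 2, the Mt1 probes at 0.3 mM (-0.43 and -0.58). Without the filter, 7 of 32 1NP values were above medium and 20 of 128 differences in effect of 1NP were called, against 0 of each with it. A replicate block kept 207 of 212 values and added 5 calls, among them Mt2A with rifampin at 40 against 20 µM (0.96, edgeR adjusted p = 0.015) and at 20 µM against medium (0.77, edgeR adjusted p = 0.0302). The numbers were not taken to pair the wells. Shares of all probes called are not given for these alternatives, and the cause of these shifts was not tested.

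With 3 wells a group from 1 cell lot, differences of Slc30a1 near its NE step of 0.63 depended on single libraries, and 1NP at 3 and 10 mM was limited by the spread of its replicates. The lowest count of a member in a library was 27.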
